A study of Mus musculus with 5 samples.

Results

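Sectm1a, Sectm1b and Cd7, a pair of ligand genes and the gene of their receptor, were followed through single-cell RNA sequencing of mouse mammary tumors. The 3 members were found by symbol among all genes of the deposited matrices, in each of 15 tumors. They were chosen by their measured values in these same data, the levels of the ligands in epithelial cells by treatment and of Cd7 in cytotoxic lymphocytes, so their levels by cell class and treatment are given as a description, with no test. Tests were kept for what that choice had not used: which other genes differed between cells with and without each member, and whether both ligands occurred in the same cell. The gene lists used below were themselves chosen with earlier results of these data known.

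CD7 is a receptor of the immunoglobulin superfamily carried by T cells, natural killer cells and innate-like lymphocytes. SECTM1, also called K12, is a transmembrane and secreted protein made by epithelial and myeloid cells that binds CD7 and can costimulate lymphocytes. Mice carry a pair of genes related to human SECTM1, Sectm1a and Sectm1b. The protein of Sectm1a has also been described as a ligand of GITR (gene Tnfrsf18), whose usual ligand is the product of Tnfsf18, and galectin-1 (Lgals1) is a further protein that binds CD7.

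All tumors arose in MMTV-PyMT mice. The strain was FVB/N-Tg(MMTV-PyVT)634Mul/J, whose transgene puts the oncogene of mouse polyomavirus, the middle T antigen, under a viral promoter (MMTV) that is active in the mammary gland. From 7 weeks of age and for 6 weeks, mice received 5 mg/kg of an antibody intraperitoneally, either B20-4.1.1, which blocks VEGF-A, or the isotype control, mouse IgG2a clone C1.18.4. There were 6 isotype tumors in 2 pools and 9 B20-4.1.1 tumors in 3 pools, 1 tumor per mouse and 3 tumors per pool, and each pool held tumors of 1 treatment only. Treatment and pool therefore cannot be told apart by comparing tumors. The files held 30340 cells. The number of UMIs (unique molecular identifiers, each standing for 1 captured RNA molecule) was between 4014509 and 23726246 per tumor, and 19533 cells with at least 2500 UMIs, and below the upper limit of the study's methods, were kept. Cell classes were set by counting detected marker genes, none of them a member. This gave 13250 epithelial cells (68 to 1934 per tumor), 1141 cytotoxic lymphocytes (26 to 155 per tumor), 1656 other T cells, 1389 macrophages and smaller classes, with 1752 cells unassigned. In 3 B20-4.1.1 tumors (pool 1 tumor 3 and pool 2 tumors 1 and 3), other T cells made up 52.9%, 60.3% and 59.1% of cells. Levels and list counts that changed when these tumors were left out are given both ways.

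The 3 genes lie next to each other. In GRCm38 coordinates they are all on the minus strand of chromosome 11: Cd7 (ENSMUSG00000025163) at chr11:121036747-121039418, Sectm1b (ENSMUSG00000039364) at chr11:121053458-121063569 and Sectm1a (ENSMUSG00000025165) at chr11:121067407-121081220. The stretch between Cd7 and Sectm1b is 14039 bases and that between Sectm1b and Sectm1a is 3837 bases. An antisense gene, Gm11775, runs over Cd7 on the other strand. It had 20 UMIs in all kept cells against 14888 for Cd7, and whether the counting used strand is not given in the sources used here.

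Since the ligand genes are paralogs, their sequences were compared to see whether reads of one could be counted for the other. The coding parts of the transcripts Sectm1a-201 (576 bases) and Sectm1b-201 (636 bases) were identical at 373 of 559 aligned bases, or 66.7%. The longest identical run was 12 bases, shown in capitals in the coding stretches below, each of which spans an exon junction. Of the 31-base words of the full transcripts, 1776 in Sectm1a and 2816 in Sectm1b, 0 were shared.
Sectm1a, chr11:121069893-121075603, minus strand, spliced: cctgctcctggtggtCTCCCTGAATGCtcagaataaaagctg
Sectm1b, chr11:121055970-121056241, minus strand, spliced: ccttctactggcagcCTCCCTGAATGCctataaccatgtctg
A read that matches one transcript exactly over 31 bases therefore cannot match the other.

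Both ligand genes were read mainly from epithelial cells. These cells held 6343 of 6889 Sectm1a UMIs (92.1%) and 2260 of 2440 Sectm1b UMIs (92.6%). Unassigned cells, of which 1125 of 1752 carried as many epithelial markers as the epithelial gate asked for, held a further 7.19% and 6.84%. Sectm1a was detected in 26.7% of epithelial cells, at a median of 8731 UMIs per cell. Among lymphocytes, 0.438% of cytotoxic lymphocytes and 0.423% of other T cells had a Sectm1a UMI, at medians of 5149 and 3636.5 UMIs per cell. Whether these UMIs came from free RNA, doublets or the lymphocytes themselves was not tested. Macrophages had one in 2.02% of cells (interval 1.34 to 2.90), at a median of 6493 UMIs. In neutrophils, at a median of 3085.5 UMIs per cell, a Sectm1a UMI was found in 0 of 98 cells. By counting error alone (3 counts of the total) this allows a share of cells with a UMI of up to 3.06%, and it does not limit how many express the gene. For Sectm1b the share was 11.3% of epithelial cells (exact 95% interval 10.8 to 11.9, counting error only), 0.351% of cytotoxic lymphocytes and 0.144% of macrophages.

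**Figure D1:**
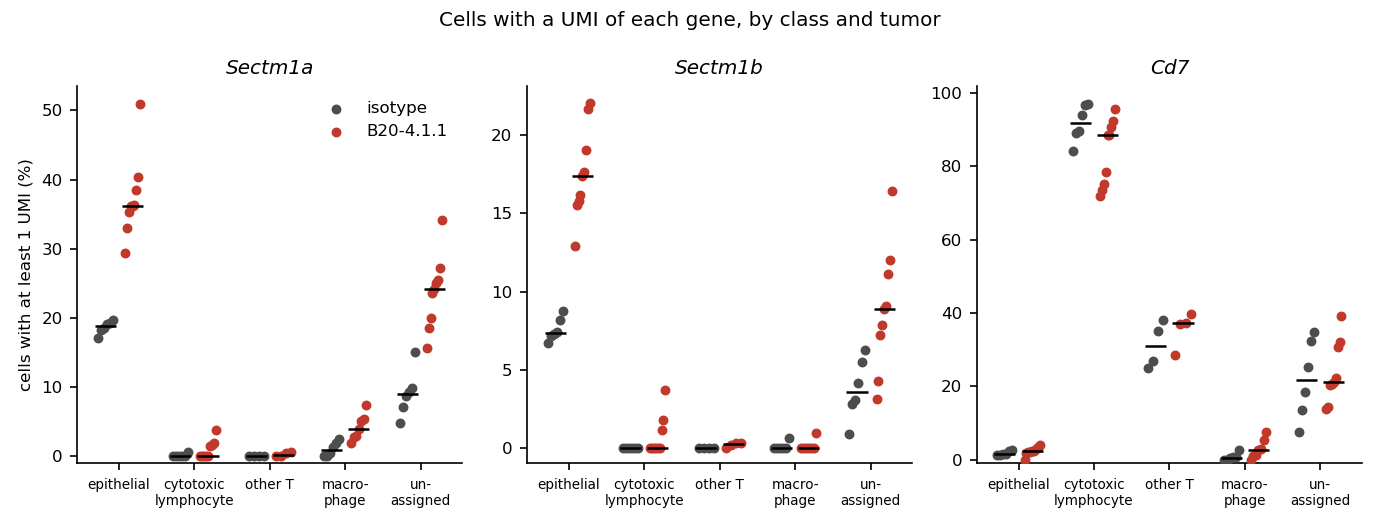
Percentage of cells with at least 1 UMI of Sectm1a, Sectm1b and Cd7 (vertical axes, which differ in scale) by cell class, 1 point per tumor with at least 20 cells of the class; black bars are medians of the isotype tumors (gray) or the B20-4.1.1 tumors (red). The ligands stood out in epithelial cells, where isotype and B20-4.1.1 points did not overlap, and Cd7 in cytotoxic lymphocytes, at 71.9% to 97.0% of cells.

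The Sectm1a level in epithelial cells was 0.244, 0.300 and 0.324 UMIs per 10000 UMIs (lowest, median and highest) in the 6 isotype tumors. In the 9 B20-4.1.1 tumors it was 0.424, 0.685 and 1.09. The groups did not overlap, and the highest B20-4.1.1 tumor, pool 3 tumor 1, stood above the rest. The means were 0.288 ± 0.0329 (SD, n = 6) and 0.688 ± 0.191 (SD, n = 9), a ratio of 2.39. The share of epithelial cells with a Sectm1a UMI was 17.1%, 18.8% and 19.7% (lowest, median and highest) under isotype and 29.4%, 36.1% and 51.0% under B20-4.1.1. After each cell was thinned to 2500 UMIs, so that depth was equal, the median shares were 7.34% and 15.4%, and the highest isotype tumor (8.30%) was still below the lowest B20-4.1.1 tumor (11.2%). Cells with several UMIs of the ligand were also more frequent under B20-4.1.1. Of Sectm1a-positive cells, 9.29% had 3 or more of its UMIs under isotype (1507 cells) and 24.1% under B20-4.1.1 (2033 cells), and the highest cell held 24.

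Sectm1b in epithelial cells was 0.0824, 0.111 and 0.147 UMIs per 10000 (lowest, median and highest) in isotype tumors and 0.217, 0.253 and 0.294 in B20-4.1.1 tumors, again with no overlap. The means were 0.116 ± 0.0244 (SD, n = 6) and 0.256 ± 0.0281 (SD, n = 9), a ratio of 2.21. The median share of cells with a Sectm1b UMI was 7.36% and 17.4%. In thinned cells the medians were 2.97% and 7.00%, and 1 of the 9 B20-4.1.1 tumors lay below the highest isotype tumor (3.93%). Among all 12172 genes tested in epithelial cells, 1.44% were higher in B20-4.1.1 with no overlap between the groups, and both ligands belong to that share because the choice of members used it. Leaving out the tumors rich in other T cells gave ratios of 2.57 for Sectm1a and 2.20 for Sectm1b.

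Within treatments, pools also differed. The Sectm1a mean per pool was 0.677, 0.517 and 0.870 for B20-4.1.1 pools 1 to 3, against 0.303 and 0.272 for isotype pools 1 and 2. The Sectm1b mean per pool was 0.135 and 0.0965 under isotype and 0.248, 0.267 and 0.252 under B20-4.1.1. Thus the 3 B20-4.1.1 pools were spread for Sectm1a and nearly level for Sectm1b, and every B20-4.1.1 pool lay above both isotype pools for either gene. Unassigned cells, many of which passed the count of epithelial markers, had Sectm1a in 4.86% to 15.2% of cells in isotype tumors and in 15.6% to 34.2% in B20-4.1.1 tumors, without overlap. In tumors with at least 20 macrophages, these cells had it in 0% to 2.50% under isotype and 1.92% to 7.41% under B20-4.1.1. These ranges overlap, and the medians were 0.896% and 4%, on 33 Sectm1a UMIs in all macrophages.

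**Figure D2:**
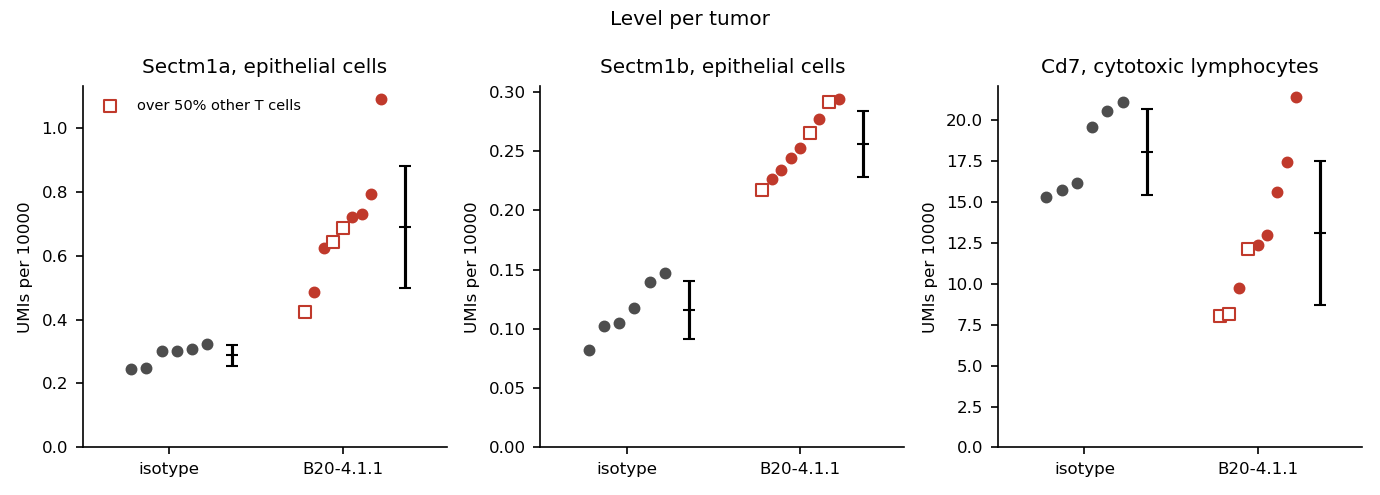
UMIs per 10000 UMIs (vertical axes, starting at 0) of Sectm1a and Sectm1b in epithelial cells and of Cd7 in cytotoxic lymphocytes, 1 point per tumor, with the mean and SD of each group beside the points (n = 6 isotype and 9 B20-4.1.1 tumors). Open squares are the 3 tumors in which over 50% of cells were other T cells; the groups were apart for both ligands (Sectm1a means 0.288 and 0.688) and overlapped for Cd7.

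Cd7 was a gene of the cytotoxic lymphocyte class, which held 10884 of its 14888 UMIs (73.1%). The mRNA was detected in 88.9% of these cells (exact 95% interval 86.9 to 90.6), against 2.02% of epithelial cells, 1.37% of macrophages and 0 of the 98 neutrophils (the same limit of 3.06% of cells with a UMI). Other T cells had it in 33.2% of cells at 1.43 UMIs per 10000, and unassigned cells, which held 18.4% of Cd7 UMIs, in 21.3%. The level in cytotoxic lymphocytes was 15.3, 17.9 and 21.1 UMIs per 10000 (lowest, median and highest) in isotype tumors and 8.06, 12.4 and 21.4 in B20-4.1.1 tumors. The B20-4.1.1 tumors reached from below the isotype range to just above it, and their median lay below the lowest isotype tumor. The means were 18.1 ± 2.63 (SD, n = 6) and 13.1 ± 4.42 (SD, n = 9), a ratio of 0.725, and without the tumors rich in other T cells the ratio was 0.826. The isotype pools themselves stood at 15.7 and 20.4, and the B20-4.1.1 pools at 15.5, 10.6 and 13.2. In 0.120% of the 4995 genes tested in this class the B20-4.1.1 tumors all lay below the isotype tumors, and Cd7 was not one of them. Epithelial markers in the cytotoxic class summed to 3.69 to 5.45 UMIs per 10000 in isotype tumors and 1.80 to 4.18 in B20-4.1.1 tumors, with 0 of the 9 markers at 0, and their part in the Cd7 values was not tested. Ligand and receptor levels can be set side by side. The tumor with the highest Sectm1a level, 1.09 in B20-4.1.1 pool 3 tumor 1, had a Cd7 level of 12.4 and a Sectm1b level of 0.277. The tumor with the highest Cd7 level, 21.4 in B20-4.1.1 pool 1 tumor 2, had a Sectm1a level of 0.722. Its Sectm1b level, 0.294, was the highest of all tumors.

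Within the cytotoxic gate, Cd7 differed between cells with different lymphocyte genes. The split used here was chosen after the values were seen. Fcer1g encodes the signaling chain shared by Fc receptors and several receptors of natural killer and innate-like T cells, and Cd8b1 the beta chain of CD8 on conventional cytotoxic T cells. The 914 cells with Fcer1g and without Cd8b1 had Cd7 at 16.5 to 21.6 UMIs per 10000 in the 6 isotype tumors and 11.6 to 24.7 in the 9 B20-4.1.1 tumors. The 134 cells with Cd8b1 and without Fcer1g had it at 2.26 in all. In the 4 tumors with at least 10 such cells, all of them B20-4.1.1, it was at 1.53 to 2.33. Isotype tumors had at most 9 such cells each, with Cd7 at 1.07 to 12.0 where there were any. The share of these Cd8b1-only cells among cytotoxic lymphocytes ranged from 0% to 9.09% in isotype tumors and from 0% to 43.3% in B20-4.1.1 tumors. It was 31.6%, 35.3% and 43.3% in the tumors rich in other T cells and 31.8% in B20-4.1.1 pool 2 tumor 2. The Cd7 level was 12.1, 8.06 and 8.18 in the tumors rich in other T cells, in the same order. In pool 2 tumor 2 it was 15.6, within the isotype range. B20-4.1.1 pool 3 tumor 1 had 1.52% of such cells and a level of 12.4, and pool 3 tumor 3 had 13.5% and a level of 9.77. In the Fcer1g-only cells of the last pair of tumors Cd7 was at 12.2 and 11.6, below every isotype tumor. It was also below them in B20-4.1.1 pool 1 tumor 1 (15.1), pool 2 tumor 1 (11.6) and pool 2 tumor 3 (14.3). The remaining B20-4.1.1 tumors lay at 18.7 or above. The part of this share in the lower Cd7 level of the B20-4.1.1 group was not tested.

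**Figure D3:**
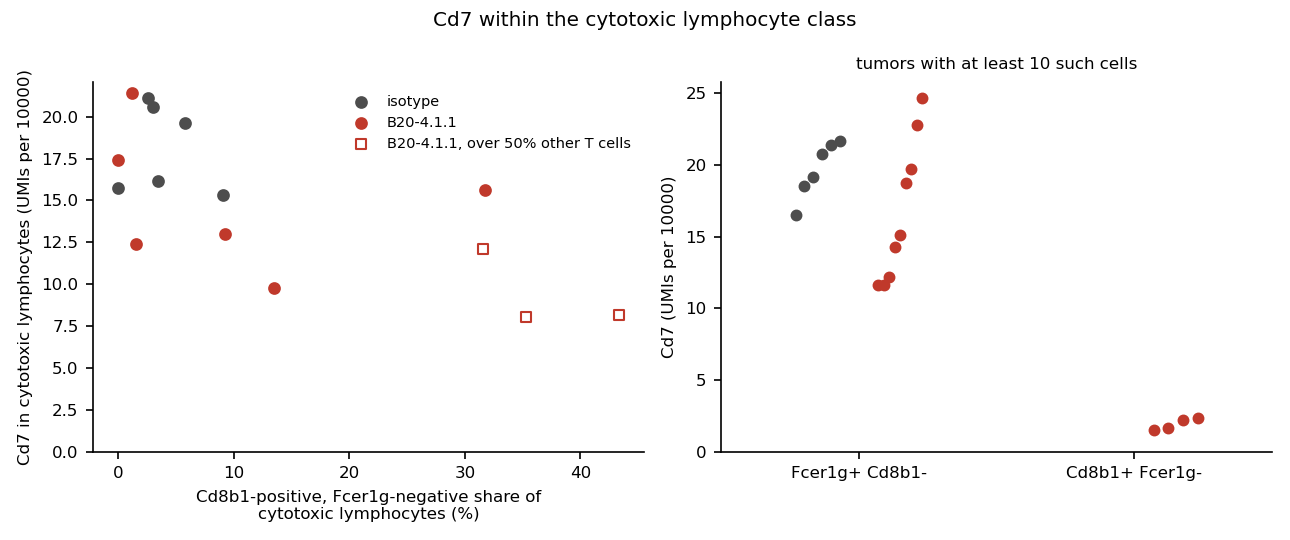
Left, Cd7 in cytotoxic lymphocytes (UMIs per 10000) against the share of these cells with Cd8b1 and without Fcer1g (%), 1 point per tumor (gray isotype, red B20-4.1.1, open squares the 3 tumors with over 50% other T cells); right, Cd7 within the cells with Fcer1g only and with Cd8b1 only, in tumors with at least 10 such cells. Cd8b1-only cells, which reached this number in B20-4.1.1 tumors only, lay between 1.53 and 2.33, below all Fcer1g-only values, of which the lowest was 11.6.

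The next question was whether an epithelial cell that made one ligand tended to make the other. Cells were thinned to 2500 UMIs so that a deep cell could not raise both counts. A UMI of both genes was found in 154 epithelial cells, against 75.2 expected from the single shares within each tumor. The share of Sectm1a-positive cells was 27.1% (median over tumors) among cells with Sectm1b and 11.6% among cells without it. Over the 13 tumors that gave a ratio of at least 1 expected cell, the log2 ratio of observed to expected was 1.00 ± 0.76 (SD), above 0 in 12 of 13 (exact two-sided sign-flip permutation test, p = 0.00244; the smallest p this design allows is 0.000244). Isotype pool 1 tumor 1 went the other way, with 1 cell observed against 2.28 expected. B20-4.1.1 pool 1 tumor 3 had 0 such cells against 1.12 expected and gives no log ratio; with 0.5 added to both numbers, an alternative chosen after seeing the data, the mean over 14 tumors was 0.74 (exact permutation p = 0.0134). Without thinning, 777 cells had both genes against 470.5 expected, and all 15 tumors were above 0.

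**Figure D4:**
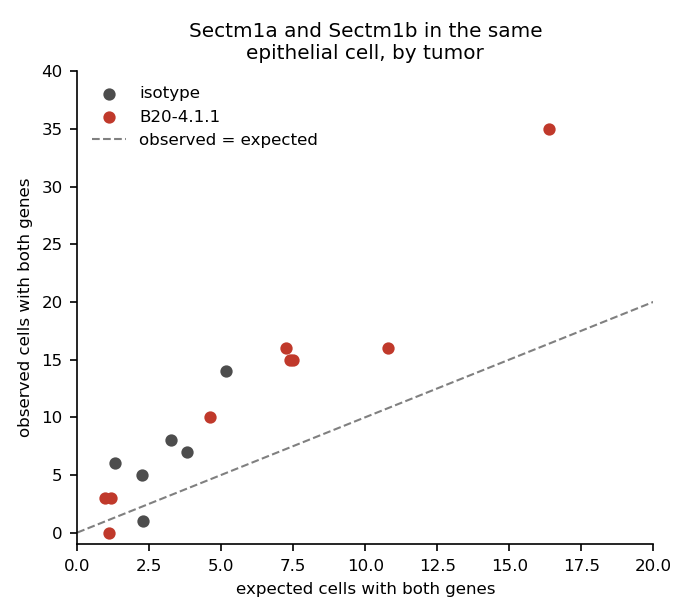
Number of epithelial cells with a UMI of both Sectm1a and Sectm1b (vertical axis) against the number expected if the genes were detected independently within the tumor (horizontal axis), after thinning to 2500 UMIs per cell, 1 point per tumor (gray isotype, red B20-4.1.1); the dashed line marks equality. Points lie above the line in 13 of 15 tumors.

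The difference between treatments in this excess did not pass its test after thinning. The mean log2 ratio was 0.96 ± 1.15 (SD, n = 6) under isotype and 1.04 ± 0.23 (SD, n = 7) under B20-4.1.1, a difference of 0.08 (exact two-sided permutation test, p = 0.865). This comparison was not stable: on unthinned counts the difference was -0.29 (exact permutation p = 0.0144), and without isotype pool 1 it was -0.56 (exact permutation p = 0.0333).

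To see what else marks a ligand-bearing cell, the counts of Sectm1a-positive and Sectm1a-negative epithelial cells were summed within each tumor and compared in pairs (edgeR quasi-likelihood test, tumor as a block, Benjamini-Hochberg adjustment over all genes). There were 1442 positive and 11808 negative cells in 15 tumors. Of 7157 genes, 398 (5.56%) passed an adjusted p of 0.05, 219 of them higher (3.06%) and 179 lower (2.50%) in positive cells. Sectm1b was among the higher, at a log2 fold change of 1.43 (SE 0.157, adjusted p = 7.75e-10, higher in 13 of 15 tumors). Ltf, which encodes the iron-binding milk protein lactoferrin, rose by 0.90 on the log2 scale (SE 0.0638) in 15 of 15 tumors, and Cd14, a coreceptor for lipopolysaccharide, by 0.71 in 15 of 15. Irf7, the interferon regulatory factor that amplifies type I interferon production, rose by 0.78 in 14 of 15. Wfdc3, a whey acidic protein domain gene, rose by 0.90 in 14 of 15, Wisp2, a matricellular protein gene, by 0.85 in 13 of 15, and Spns3, a transporter gene, by 0.71 in 14 of 15.

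In the other direction, Car6, a secreted carbonic anhydrase, fell by 1.74 on the log2 scale in 15 of 15 tumors (SE 0.127). Ctgf, a matricellular target of the YAP pathway, fell by 1.89 in 13 of 15 tumors, and Scgb2b27, a secretoglobin, and Car12, a membrane carbonic anhydrase, both fell by 0.76, in 13 and 12 of 15 tumors. Myc also fell by 0.76, in 15 of 15 tumors, although without B20-4.1.1 pool 3 its adjusted p was 0.0506. Ptn, the growth factor pleiotrophin, had 21 UMIs in positive cells, 95.2% of them from isotype pool 1 tumor 1, against 1645 in negative cells (log2 fold change -3.26, lower in 12 of 15 tumors).

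By gene list, calls in cells with Sectm1a were on the higher side for interferon, defense and milk genes and on the lower side for keratins. Of 25 interferon response genes tested, 10 were higher and 0 lower (3.06% and 2.50% of all genes), with a median log2 fold change of 0.46 against -0.01 over all genes. Besides Irf7, the ubiquitin-like Isg15 rose by 0.69 in 13 of 15 tumors and the translation inhibitor Ifit1 by 0.67 in 12 of 15. Ifit3 (1.45) and the antiviral Rsad2 (1.19) passed the test but were higher in 8 and 7 of 15 tumors. B20-4.1.1 pool 3 weighed on this list: without it Ifit1 (0.61, adjusted p = 0.139) and Ifi27l2a (0.43, adjusted p = 0.273) no longer passed, and with 1 pool left out at a time the list had 4 to 11 genes higher. DESeq2 called 5 of the 25 higher, and on unthinned cells 19 were.

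Of 17 epithelial defense and acute phase genes, 9 were higher and 0 lower (median 0.33). Among the 17, 2 (S100a8 and S100a9) had served as neutrophil gate markers. The secreted whey-type protease inhibitor gene Wfdc18, among the most abundant mRNAs of these cells, rose by 0.63 in 15 of 15 tumors, and Lrg1, a leucine-rich glycoprotein of the acute phase, by 0.68 in 15 of 15. The antileukoproteinase Slpi rose by 0.62 in 11 of 15. Hp (haptoglobin) passed at 0.81 but was higher in 6 of 15 tumors, and DESeq2 put it at -0.14. Of 14 milk and secretory genes, 9 were higher and 0 lower (median 0.34), led by Spp1 (osteopontin, 0.55) and Mfge8 (the milk fat globule protein, 0.54), both in 15 of 15 tumors, and by Lalba (alpha-lactalbumin, 0.51) in 14 of 15. Wap, the whey acidic protein, was at 0.45, with 60.8% of its UMIs in positive cells from B20-4.1.1 pool 3 tumor 1 (without B20-4.1.1 pool 1, 0.36 and adjusted p = 0.0657). Without the tumors rich in other T cells, 8 milk genes were higher and 1 lower and 10 defense genes were higher, and on unthinned cells 12 milk genes were higher and 1 lower.

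Of 13 keratin and squamous genes, 0 were higher and 4 lower (median -0.16). Of the 13, 4 others (Krt7, Krt8, Krt18 and Krt19) had served as epithelial gate markers. Krt17 fell by 1.66 in 12 of 15 tumors, and Krt14, a basal keratin, fell by 0.49 in 11 of 15 (without B20-4.1.1 pool 1, -0.39 and adjusted p = 0.178; without pool 3, -0.35 and adjusted p = 0.364). The cornified envelope gene Sprr1a had 1 UMI in positive cells and 509 in negative cells, 48.1% of the latter from B20-4.1.1 pool 2 tumor 2. Pooled over tumors, this was 62.1 times more per UMI in negative cells, with an interval of 11.1 to 2459 for counting error only. The kallikrein Klk6 had 8 and 645 UMIs, 70.4% of the latter from B20-4.1.1 pool 2 tumor 2. DESeq2 called 0 of these 13, and on unthinned cells 7 were lower. Of 23 hypoxia response genes, a list of interest because the antibody blocks VEGF-A, 2 were higher and 1 lower, with a median of -0.11 (5 and 5 on unthinned cells). The oxygen-sensing hydroxylase Egln3 fell by 0.74 in 14 of 15 tumors, and the glycolytic enzyme Ldha rose by 0.23 in 13 of 15.

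Among genes for other proteins that engage lymphocytes, 2 of 7 tested immune ligands of epithelium were higher. Vtcn1, the checkpoint ligand B7-H4, rose by 0.60, and Clec2d, a ligand of an inhibitory receptor of natural killer cells, by 0.50, each in 12 of 15 tumors. Of 5 partners and relatives of CD7, 1 was higher, Lgals9 (galectin-9, 0.42 in 13 of 15 tumors), which without B20-4.1.1 pool 1 (0.36, adjusted p = 0.184) or pool 2 (0.36, adjusted p = 0.0865), or the tumors rich in other T cells (0.39, adjusted p = 0.0665), no longer passed. The CD7-binding galectin Lgals1 was at -0.07 (adjusted p = 0.812) and Lgals3 at -0.06 (adjusted p = 0.824). Tnfrsf18 and Tnfsf18 were too low for the test. Of 4 cell cycle genes tested, 0 passed, but 1 was lower without the tumors rich in other T cells and 2 on unthinned cells. Of the 10 T cell and 9 macrophage markers, 0 were high enough to be tested.

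**Figure D5:**
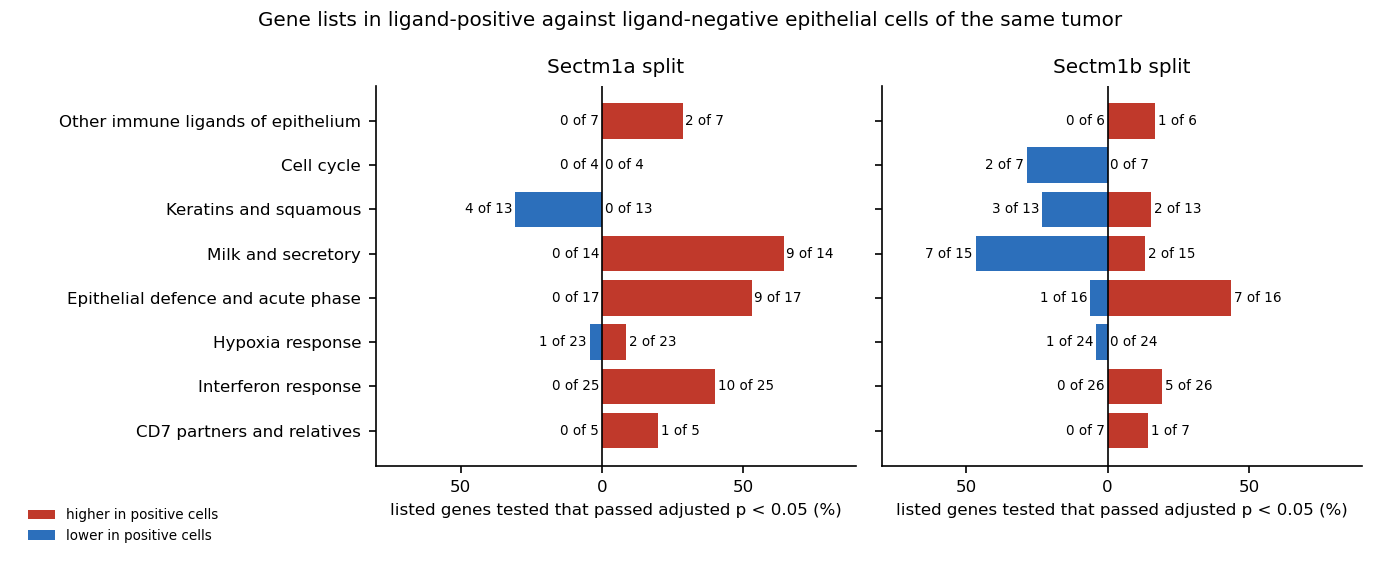
Percentage of the tested genes of each list that were higher (red, to the right) or lower (blue, to the left) in epithelial cells with Sectm1a (left panel) or Sectm1b (right panel) than in cells of the same tumor without it, at an adjusted p under 0.05, with the number of genes beside each bar. Of interferon genes 10 of 25 were higher with Sectm1a and 5 of 26 with Sectm1b, and milk genes were 9 of 14 higher with Sectm1a but 7 of 15 lower with Sectm1b, where DESeq2 called 1 lower and unthinned cells gave 7 higher and 1 lower.

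The same comparison for Sectm1b had 571 positive and 12456 negative cells in 13 tumors. Of 8022 genes, 361 (4.50%) passed, 122 higher (1.52%) and 239 lower (2.98%). Here the split between directions depended on scaling: the percentage of calls that were higher was 33.8% with TMM factors, 59.5% with RLE factors (326 calls) and 56.6% with DESeq2 (242 calls). Sectm1a was among the higher, at 1.25 (SE 0.145, adjusted p = 4.82e-12, higher in 11 of 13 tumors). Dusp1, an early-response phosphatase that switches off MAP kinases, rose by 1.07 in 11 of 13 tumors, and Slc5a8, a transporter of short-chain fatty acids and lactate, by 0.86 in 13 of 13. Phf11d rose by 1.03 and the adhesion molecule gene Flrt3 by 0.82, each in 11 of 13, and the tubulin Tubb2b by 0.81 in 12 of 13.

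Both splits draw on the same epithelial cells, so their calls are not independent of each other. Among genes lower with Sectm1b, Car6 fell by 1.17 in 12 of 13 tumors, Ctgf by 1.39 in 11 of 13, and Rbp7, a retinoid-binding protein gene, by 1.98 in 12 of 13. Dusp5, another phosphatase of the family of Dusp1, fell by 1.33 in 12 of 13 (without B20-4.1.1 pool 3, -1.06 and adjusted p = 0.0766). Ptn had 2 UMIs in positive and 1537 in negative cells, 32.3% of the latter from B20-4.1.1 pool 2 tumor 2. Pooled over tumors, this was 35.2 times more per UMI in negative cells, with an interval of 9.73 to 291.0 for counting error only. Scgb1b27, a secretoglobin, had 25 and 2984 UMIs.

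Of 26 interferon genes, 5 were higher and 0 lower (median 0.39 against -0.04 over all genes; 1.52% and 2.98% of all genes). Irf7 was at 0.57 and the tetherin gene Bst2 at 0.51, each higher in 11 of 13 tumors, but without B20-4.1.1 pool 1 neither passed (Irf7 0.48, adjusted p = 0.0604, and Bst2 0.33, adjusted p = 0.196), nor did Irf7 without B20-4.1.1 pool 3 (0.48, adjusted p = 0.182). Rsad2 was higher in 4 of 13 tumors, with 78.0% of its UMIs in positive cells from B20-4.1.1 pool 3 tumor 1, and without that pool its log2 fold change was -0.03. Of 16 defense genes, 7 were higher and 1 lower, among them Ltf (0.77 in 12 of 13 tumors), Wfdc18 (0.63 in 13 of 13) and Slpi (0.59 in 12 of 13). S100a8, a calprotectin subunit and a neutrophil gate marker, fell by 0.65 in 9 of 13. Without the tumors rich in other T cells the interferon list had 6 genes higher, the defense list 7 higher and 3 lower and the hypoxia list 2 lower. DESeq2 called 2 interferon genes higher, and on unthinned cells 20 were. Of 24 hypoxia genes, 0 were higher and 1 lower (Higd1a, -0.46, which did not pass without isotype pool 2 or B20-4.1.1 pools 1 or 3, adjusted p between 0.0874 and 0.119).

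Of 15 milk genes, 2 were higher and 7 lower with Sectm1b (median -0.09), but this direction turned with the processing: DESeq2 called 2 higher and 1 lower (median 0.02), and on unthinned cells 7 were higher and 1 lower (median 0.14). Without the tumors rich in other T cells 1 was higher and 7 lower. Csn2 (beta-casein) fell by 0.87 and Csn1s2a (an alpha-S2 casein) by 1.06, each in 11 of 13 tumors, and Wap by 0.64 in 10 of 13. Csn1s2a without B20-4.1.1 pool 1 was at -0.86 (adjusted p = 0.269), and Wap without isotype pool 2 at -0.40 (adjusted p = 0.0926). Glycam1 had 0 UMIs in positive cells and 620 in negative cells, at least 9.47-fold lower against a floor of 3 counts over the group, and Pip, the prolactin-induced protein, had 0 and 630, at least 9.62-fold lower. Most of these UMIs came from 1 tumor each, 56.9% from isotype pool 2 tumor 1 and 63.7% from isotype pool 1 tumor 1. The difference between the Sectm1a and Sectm1b splits was not itself tested.

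Of 13 keratin and squamous genes, 2 were higher and 3 lower with Sectm1b (1 and 0 with DESeq2). Krt17 fell by 1.89 in 13 of 13 tumors, Sprr1a had 0 UMIs in positive cells against 506 (at least 7.73-fold lower against the same floor) and Klk6 had 3 against 649. B20-4.1.1 pool 2 tumor 2 gave 48.4% of these 506 and 69.6% of these 649. The keratin Krt19, itself an epithelial gate marker, rose by 0.35 (without isotype pool 2, 0.14 and adjusted p = 0.578), and Ly6d by 0.75 in 7 of 13 tumors (unthinned, -0.16). Of 7 cell cycle genes, 0 were higher and 2 lower (0 lower with DESeq2, 6 on unthinned cells). Mki67, the proliferation antigen Ki-67, had 11 UMIs in positive cells and 668 in negative cells and was lower in 13 of 13 tumors (log2 fold change -1.30, adjusted p = 0.0386), but it did not pass when any of isotype pool 1, isotype pool 2, B20-4.1.1 pool 1 or B20-4.1.1 pool 3 was left out (adjusted p between 0.0580 and 0.253). The survivin gene Birc5 had 3 and 468. Of 6 other immune ligands, 1 was higher (0 with DESeq2, 5 on unthinned cells), Vtcn1 at 0.66 in 8 of 13 tumors, which did not pass without isotype pool 1 (adjusted p = 0.126), B20-4.1.1 pool 1 (adjusted p = 0.408), B20-4.1.1 pool 3 (adjusted p = 0.150) or the tumors rich in other T cells (adjusted p = 0.128). Tnfsf18, the GITR ligand gene, passed at 3.14 (adjusted p = 0.0180) on 8 UMIs in positive and 19 in negative cells, 62.5% of the 8 from isotype pool 1 tumor 3. It was higher in 2 and lower in 7 of 13 tumors.

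Cells with Cd7 were set against cells without it in the same way within the cytotoxic gate, with 775 positive and 187 negative cells in 11 tumors. Of 2039 genes, 172 (8.44%) passed, 86 higher (4.22%) and 86 lower (4.22%). DESeq2 made 146 calls, of which 38.4% were higher. Tcrg-C2, a constant region of the gamma T cell receptor chain, rose by 2.99 on the log2 scale in 11 of 11 tumors, and Klra5, a receptor of the Ly49 family, by 2.96 in 11 of 11. Gzmb, the cytotoxic protease granzyme B, rose by 2.43 in 11 of 11, as did Ikzf2 (Helios, 2.27) and Mfsd10 (2.28). Abcb1a, a multidrug efflux pump, rose by 2.64 in 10 of 11. From the cytotoxic and innate-like list, Itgae (CD103, an integrin that binds E-cadherin on epithelium) rose by 1.63, Cd160 by 1.34 and Trdc, the delta chain constant region, by 1.34, each in 11 of 11 tumors.

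Other genes were lower with Cd7. Cd8b1 fell by 1.62 in Cd7-positive cells, Eomes, a transcription factor of effector and memory CD8 cells, by 2.01, and the surface gene Ly6a by 3.47, each in 10 of 11 tumors. Ly6c2, a marker of memory T cells, fell by 2.08 in 9 of 11. Klf2, which drives exit from tissue, fell by 1.27 in 10 of 11, and the chromatin organizer Satb1 by 1.34 in 11 of 11. The costimulator gene Cd28 fell by 1.78. Eomes did not pass without isotype pool 2 (-1.79, adjusted p = 0.0548), Ly6a without B20-4.1.1 pool 2 (-3.11, adjusted p = 0.149) and Cd28 without isotype pool 1 (-1.77, adjusted p = 0.0619), isotype pool 2 (-1.20, adjusted p = 0.264) or the tumors rich in other T cells (-2.45, adjusted p = 0.0926). In lists, 15 of 29 cytotoxic and innate-like genes were higher and 3 lower (median 0.51 against -0.02 over all genes), and 15 of these 29 had served as gate markers. Of 9 naive and homing genes, 0 were higher and 2 lower (median -1.27), and DESeq2 called 5 lower. Without the tumors rich in other T cells, 103 genes passed, 13 of the 29 were higher and 4 lower, and 3 of the 9 were lower.

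Among partners and relatives of CD7 in these lymphocytes, Lgals1 fell by 1.47 in Cd7-positive cells (SE 0.237, adjusted p = 4.12e-05, lower in 9 of 11 tumors). The galectin-1 mRNA was thus higher in cytotoxic cells without a Cd7 UMI after thinning. Lgals3 rose by 0.90 (SE 0.177, adjusted p = 0.000681, 10 of 11) and the costimulatory receptor gene Tnfrsf9 (4-1BB) by 1.27 in 9 of 11. Tnfrsf18 was at 0.38 (adjusted p = 0.335, higher in 9 of 11), a difference that did not pass. Tnfrsf18 mRNA was itself found in 52.7% of cytotoxic lymphocytes, 28.7% of other T cells and 7.84% of epithelial cells, at 1.49, 1.05 and 0.0873 UMIs per 10000. Tnfsf18 was at or near 0 throughout, in 52 of 13250 epithelial cells (0.392%) and 3 macrophages, with 0 of 1141 cytotoxic lymphocytes. Of 12 interferon genes tested, 0 were higher and 2 lower (Ifi27l2a, -1.38, and Gbp7, -0.84, which did not pass when any 1 pool was left out, adjusted p between 0.0668 and 0.220).

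In epithelial cells, 1848 of 12172 genes (15.2%) differed between B20-4.1.1 and isotype over tumors (edgeR, adjusted p under 0.05), 7.67% higher and 7.51% lower. The members' own log2 fold changes in this fit were 1.38 (SE 0.164) for Sectm1a and 1.23 (SE 0.107) for Sectm1b. Of 7 partners and relatives of CD7, 2 were higher: Lgals3 by 1.46 (adjusted p = 0.000479) and Lgals9 by 1.21 (adjusted p = 0.00105). Lgals1 was at -0.04 and Tnfrsf18 at 0.14, neither of which passed. Of 13 other immune ligands, 3 were higher, Tnfsf9 (the 4-1BB ligand, 1.13), Vtcn1 (0.61) and H2-T23 (the Qa-1 molecule, 0.29). H2-T23 did not pass without isotype pool 1 or any 1 of the B20-4.1.1 pools (adjusted p between 0.0529 and 0.430) or without the tumors rich in other T cells (0.0651). The gene lists were chosen with earlier results of these data known, so their counts are not an independent test. The interferon list had 11 of 28 genes higher (median 0.79), the hypoxia list 16 of 27 (median 0.49) and the keratin list 10 of 18 (median 1.02), with 0 lower in each. Of the defense list 4 of 17 were higher, and of the milk list 1 of 16 was higher and 5 lower. Gate markers made up 4 of the 18 keratin and 2 of the 17 defense genes. The cell cycle list had 0 higher and 2 lower of 16. Without the tumors rich in other T cells, 1291 genes passed, the keratin list had 7 genes higher (median 0.87), the interferon list 9, the defense list 3 and the immune ligands 2, the milk list had 1 higher and 4 lower and the cell cycle list 1 lower. Of 10 T cell markers 7 were tested in this class, and 6 were higher and 0 lower, among them Trac (1.85) and Cd3e (1.28). Trac did not pass without isotype pool 1 or pool 2 (adjusted p = 0.136 and 0.0790). Cd3e did not pass without isotype pool 1 or B20-4.1.1 pools 1 or 2 (adjusted p between 0.0560 and 0.182). The sum of the 10 markers was 0.0548 to 0.110 UMIs per 10000 in isotype tumors and 0.107 to 0.416 in B20-4.1.1 tumors, with 0 of the 10 at 0. T cells themselves had a Sectm1a UMI in 0.423% of cells, and the part of T cell RNA in the list values was not tested. With pool as a random block 31 genes passed, and with sums per pool 2. With 1 pool left out, 408 to 5520 genes passed. The interferon list then had 4 to 16 genes higher, the hypoxia list 9 to 17, the keratin list 3 to 9 and the defense list 0 to 10. Up to 1 gene was lower in each of the hypoxia, keratin and defense lists. The milk list had 0 to 6 higher and 1 to 5 lower, the cell cycle list 1 to 5 lower and the immune ligands 2 to 4 higher.

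Of the coding genes around the members, Slc16a3, the lactate exporter MCT4 whose start lies 90.9 kb from that of Cd7 on the far side from the ligands, was higher by 2.18 (adjusted p = 0.00164). Ogfod3, beyond Sectm1a, was higher by 0.75 (adjusted p = 0.00214). Csnk1d (0.03), Narf (0.34, adjusted p = 0.0526), Hexdc (0.31), Ccdc57 (0.34) and Foxk2 (-0.13) did not pass. Cd7 itself in epithelial cells was at 0.27 (SE 0.248). The coding neighbors of the ligand genes were thus mixed, some higher and others not past the test.

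Because interferon and hypoxia genes were among the lists, the 250 bases before the annotated start of Sectm1b were searched for 3 motifs on both strands. These were the GAS motif TTCNNNGAA, the ISRE core (TTTC, any 2 bases, TTTC) and ACGTG, 1 form of the hypoxia-response core. The sequence is from the RefSeq table for GRCm38.p6, chr11:121063570-121063819, minus strand, and 1 of the 3 members matched that table.
Sectm1b upstream: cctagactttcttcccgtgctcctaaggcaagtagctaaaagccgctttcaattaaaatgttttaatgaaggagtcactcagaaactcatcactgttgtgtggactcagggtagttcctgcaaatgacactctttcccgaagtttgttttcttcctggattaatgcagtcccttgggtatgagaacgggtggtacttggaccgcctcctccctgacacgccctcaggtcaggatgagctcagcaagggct
It held 0 matches of each as written. Other forms of the hypoxia-response core and other spacings of the GAS motif were not searched. Among 32851 such regions, 7.02%, 2.98% and 16.6% held at least 1 match.

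In cytotoxic lymphocytes, 15 of 4995 genes (0.300%) differed between treatments, 10 higher (0.200%) and 5 lower (0.100%). At an unadjusted p under 0.05 there were 623, and DESeq2 called 88. Cd7 had a log2 fold change of -0.37 (SE 0.160). Cd8b1 was higher by 2.26 (adjusted p = 0.00702), the glycolytic enzyme Aldoa by 0.68 (adjusted p = 0.00495), and Lalba, a milk protein gene of epithelium, was lower by 1.22 (adjusted p = 0.0487). None of these passed without isotype pool 1 (Cd8b1 2.47, adjusted p = 0.142, Aldoa 0.69, adjusted p = 0.0562, and Lalba -0.88, adjusted p = 0.245). Cd8b1 also did not pass without isotype pool 2 (1.95, adjusted p = 0.0721), and Lalba without B20-4.1.1 pool 1 or pool 2 (adjusted p = 0.0710 and 0.272) or the tumors rich in other T cells (adjusted p = 0.214). Tnfrsf18 was at 0.27 (adjusted p = 0.449, and without isotype pool 2 at 0.64, adjusted p = 0.0453) and Lgals1 at 0.43 (adjusted p = 0.425).

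Finally, the genes whose level followed each member most closely over the 15 tumors were ranked by Pearson r of log2 CPM, centered within pools. In epithelial cells Sectm1a went with Rad50 (0.92), the glycolytic genes Pfkl (0.92) and Pgam1 (0.92), Nbea (0.91) and Anxa7 (0.90), and Sectm1b with Eif3e (0.81), Mcts1 (0.79), Mrpl13 (0.79), Mrps36 (0.77) and Plpp5 (0.75), among 4251 genes compared. The ligands had an r of 0.64 with each other, rank 453 from Sectm1a and rank 49 from Sectm1b. In cytotoxic lymphocytes Cd7 went with Lockd (0.93), Malat1 (0.91), Cdkn2c (0.86), Pnpla7 (0.86) and Rasa1 (0.86) among 4776 genes. The points share libraries and depth, and these values are a description.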

How the data were processed

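Viable cells of MMTV-PyMT tumors, sorted as DAPI-negative, were multiplexed (3 tumors per pool) and sequenced as 3' libraries. The matrices deposited by the authors hold UMI counts without normalization, 1 matrix for each tumor, made with Cell Ranger 6.1.2 per the file headers and the genome mm10 per the submitters' processing notes. A tumor's own multiplexing oligos held 84.3% to 97.6% of such UMIs. Of the barcodes, 94 occurred in more than 1 matrix, 0 of them within a pool.

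Cells with at least 2500 UMIs, under the upper limit of the study's methods (375 were above it), and at most 20% mitochondrial UMIs were kept. A class needed 4 detected markers, epithelial cells at most 1 leukocyte marker and leukocytes at most 3 epithelial markers. No doublet caller was run. Just inside the gates lay 545 epithelial cells and 202 cytotoxic lymphocytes, just outside 1125 and 204. Counts were summed per tumor and tested with edgeR 4.0.16 in R 4.3.3 (TMM, filterByExpr, two-sided). Splits by a member used cells thinned to 2500 UMIs, left the member out of the test and needed 10 cells on each side. Named genes were, per list, at most 6 with the largest change past the threshold, plus Tnfrsf18, Tnfsf18, Lgals1 and Lgals3, and per split and direction 6 genes with an average log2 CPM of at least 5 that moved the same way in 80% of tumors. The code was tested on simulated data.

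The members and the 11 gene lists were chosen with earlier results of these data known. Tumors of 1 treatment shared pools, so p-values over tumors measure their spread and not that between pools. The study's classes of B20-4.1.1 tumors by hypoxia are not in the labels and were not compared. Alternatives were DESeq2 1.42.0, RLE factors, no filter on low counts, a stricter gate, Leiden clusters in place of gates, each pool left out, pool as a random block, sums per pool and no thinning. The fits without the 3 tumors rich in other T cells, the interaction of each split with treatment, and 0.5 added to the co-detection numbers were chosen after seeing the data.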

Additional observations from a re-analysis of the deposited data

Results flagged for a closer look

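For 10 genes, the difference between ligand-positive and ligand-negative epithelial cells itself differed between treatments (interaction of the split with treatment in edgeR, adjusted p under 0.05, chosen after seeing the data). Each fitted value is the log2 fold change under B20-4.1.1 minus that under isotype, and beside it stand the mean log2 differences per tumor under isotype and under B20-4.1.1. Among Sectm1a splits (4 of 7157 genes, 429 at an unadjusted p under 0.05) the value was 3.57 for S100g (adjusted p = 0.00461), with means of -2.62 and 0.77, and -2.52 for Timp3 (adjusted p = 0.0122), with means of 0.77 and -2.11. It was -5.71 for Ptn (adjusted p = 0.0122) and -6.95 for Cartpt (adjusted p = 0.00940), but the means over tumors lay much closer, at -2.91 and -4.68 for Ptn and -0.27 and -1.32 for Cartpt. Ptn had 21 UMIs in positive cells, 95.2% of them from isotype pool 1 tumor 1, and Cartpt had 10, 8 of them from isotype pool 1 tumor 3.

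Among Sectm1b splits (6 of 8022 genes, 358 at an unadjusted p under 0.05) it was 0.82 for Clca3a2 (means -0.44 and 0.50), -1.23 for Sfn (0.90 and -0.31), -1.59 for Krt14 (0.68 and -1.51) and -1.11 for Crip1 (1.21 and 0.01). For Lgals3, the galectin gene, it was -1.14 (adjusted p = 3.22e-05), with means of 0.84 and -0.27. Scgb1b27 was fitted at -9.19, but its means were -2.52 and -3.77, and of its 25 UMIs in positive cells 76.0% came from isotype pool 2 tumor 1. The ligands' link to each other was not among these genes: the interaction was -0.11 for Sectm1b in the Sectm1a split (adjusted p = 0.990) and -0.16 for Sectm1a in the Sectm1b split (adjusted p = 1). In the Cd7 split, 0 of 2039 genes passed in edgeR and 122 had an unadjusted p under 0.05.

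Among 18 groups of tumors tested for a single tumor far from the others, 0 were found, where chance gives about 1 in 20.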

How the results depend on the processing

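No paired analysis was possible because the labels carry no replicate numbers: those used here were given in accession order, and they tie no pool of one treatment to a pool of the other. Calls between treatments depended on the pools. In epithelial cells the number of genes called was 408 to 5520 with 1 pool left out, 31 with pool as a random block, 2 with sums per pool and 995 on thinned counts. In cytotoxic lymphocytes it was 88 with DESeq2, 7 with RLE factors, 118 with no filter on low counts, 6 with the stricter gate, 4 with Leiden clusters, 2 with the pool block, 0 with sums per pool, 0 to 128 with 1 pool left out and 6 without the tumors rich in other T cells. The Sectm1a split gave 236 to 425 genes with 1 pool left out and 2624 without thinning. The Sectm1b split gave 695 with no filter and 1965 without thinning. Leaving out the filter also moved the median log2 fold change of all genes to -0.17, -0.31 and 0.33 in the Sectm1a, Sectm1b and Cd7 splits. The Cd7 split gave 91 to 172 genes with 1 pool left out, 46 with the stricter gate, 313 with Leiden clusters and 103 without the tumors rich in other T cells. The log2 ratio of mean Sectm1b levels was 0.92 to 1.41 with 1 pool left out. The cause of these changes was not tested.

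The difference in co-detection between treatments changed sign in 4 alternatives, to -0.29 without thinning, -0.017 with Leiden clusters, -0.56 without isotype pool 1 (-0.56 to 0.72 with 1 pool left out) and -0.25 with 0.5 added. Single genes gave 1934 values under alternatives. Among them were 14 fold changes between treatments for each member, which had no test and were counted as kept. In all, 1655 kept their direction and side of the threshold, 260 no longer passed, 3 newly passed and 16 changed sign. The last were, between treatments in epithelial cells, Tnfrsf18 (-0.14 to 0.50 with 1 pool left out, -0.029 with the pool block) and Lgals1 (-0.40 to 0.47 with 1 pool left out, 0.0049 with the pool block), and in cytotoxic lymphocytes Lalba (0.77 with Leiden clusters). In the Sectm1a split they were Hp (-0.14, DESeq2), Lgals1 (0.041, no thinning) and Lgals3 (-0.14 to 0.034 with 1 pool left out). In the Sectm1b split they were Rsad2 (-0.027 to 1.72 with 1 pool left out), Ly6d (-0.16, no thinning), Lgals1 (-0.012, no filter) and Lgals3 (-0.040 to 0.33 with 1 pool left out), and in the Cd7 split Tnfrsf18 (-0.13, Leiden clusters).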
